A study of Avena sativa with 6 samples.

Results

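The genes described here carry the KEGG names of proteins of the cytosolic small ribosomal subunit, in peeled grains of the oat cultivar BY9. Members were all genes whose KEGG text names such a protein (RP-S followed by a number and e, by a number and Ae, or RP-SAe) and whose mean over the 6 libraries was at least 1 FPKM. They were thus chosen by name and by their mean level, so that their abundance is no finding, and a gene low in both groups could not enter. FPKM counts fragments relative to gene length and to the size of the library. By name 250 of the 136488 listed genes matched. The minimum was reached by 230 of these, and by 58283 of all genes. The 230 genes fall under 31 proteins, with 2 to 14 genes per protein and a median of 6. The protein S29 was not among the names matched.

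BY9 (Baiyan No.9) is a high-oil oat, and all 6 libraries were made from its seeds after peeling. In the unshaded group (n = 3) ears stayed in the light, and in the ear-shaded group (n = 3) ears were covered for 4 days after flowering. No further genotype, age or agent is given by the labels, nor whether replicates are from different plants. P-values thus rest on library-to-library spread that could be partly technical.

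The small subunit of the cytosolic ribosome carries the messenger RNA and reads its codons against transfer RNA, while the large subunit joins the amino acids. It is built from ribosomal RNA and a set of small proteins, nearly all in a single copy per ribosome, which form a head and a body with a platform. In plants each of these proteins is usually encoded by several genes, and in cereal grains the ribosomes they form make the storage proteins of the endosperm. Oat is a hexaploid with A, C and D subgenomes, so close copies share sequence and reads may be divided among them. The sum over the copies of a protein is for that reason firmer than the value of a single copy.

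The label was checked against the second annotation in the table, the COG text. Of the 230 members, 204 had COG text naming a ribosomal protein or its domain, and 10, all of S27A, had text on ubiquitin. S27A is made as a fusion of ubiquitin with a ribosomal protein. The other 16 had text of other kinds. They were 3 genes with EF-hand text under S13, 3 with exostosin text and 1 with AAA ATPase text under S16, and 3 with DnaJ text under S24. Under S4 there were 3 genes with cupin-domain text, under S20 there were 2 with RNA phosphotransferase text, and under S25 there was 1 with text on export of the large subunit. In 8 of the 16 the gene number in the ID lay within 20 of a copy of the same protein with ribosomal text. KEGG text named more than 1 function for 31 members. The label thus holds for most members by both texts, and the main counts and sums, and the totals of the 6 proteins with such genes, are also given without the 16.

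Of the libraries, ear-shaded replicates 1 and 2 were nearly alike. The median absolute difference between them was 0.05 on the log2(FPKM + 1) scale over the members, against 0.15 to 0.53 in the other pairs within a group. In the members' summed FPKM, ear-shaded replicate 3 and unshaded replicate 3 lay nearest to the other group. Read depth is unknown, since only FPKM were used, and library totals ranged from 493004.4 to 561771.7 FPKM. Markers of other tissues also differed between the groups by the limma test given below. In that test 42.4% of all tested genes were higher and 21.5% lower. Of 117 photosystem and antenna genes 107 were higher (91.5%) and 6 lower, with sums of 118 to 151 FPKM in unshaded and 2049.7 to 2511.8 FPKM in ear-shaded libraries. Of 119 genes with storage protein or granule-bound starch synthase text 92 were lower (77.3%) and 3 higher, with sums of 21805.9 to 41745.0 FPKM and 6896.4 to 10825.7 FPKM. Of 72 genes of cyclins and DNA replication 48 were higher (66.7%) and 5 lower, with sums of 437 to 507 FPKM and 645 to 812 FPKM. Of 482, 171 and 106 genes matching the texts of these lists, only those 117, 119 and 72 reached the minimum mean of 1 FPKM. A gene high in a single group can reach it, so these shares may be partly set by the minimum. None of the markers in these lists was at 0 in all 6 libraries. Their part in the results below was not tested, and in whole grains fewer cells of a type and less RNA per cell cannot be told apart.

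The question was whether covering the ear changes the RNA for the small subunit, and most of its genes were lower. The summed expression of the 230 members was 28495.3, 30877.3 and 22618.1 FPKM in the unshaded libraries and 12368.7, 12337.1 and 17694.7 FPKM in the ear-shaded ones. All 3 ear-shaded sums thus lay below the lowest unshaded sum. The means were 27330.2 ± 4251.1 FPKM (SD, n = 3) and 14133.5 ± 3084.1 FPKM, a ratio of 0.517. As a share of all FPKM, which does not depend on a library's total, the members held 5.16%, 5.50% and 4.26% in unshaded and 2.51%, 2.50% and 3.46% in ear-shaded libraries. Without the 16 genes of other COG text the ratio of sums was 0.515, and over genes with ribosomal text alone, which leaves out the ubiquitin-text genes of S27A too, it was 0.494.

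**Figure D1:**
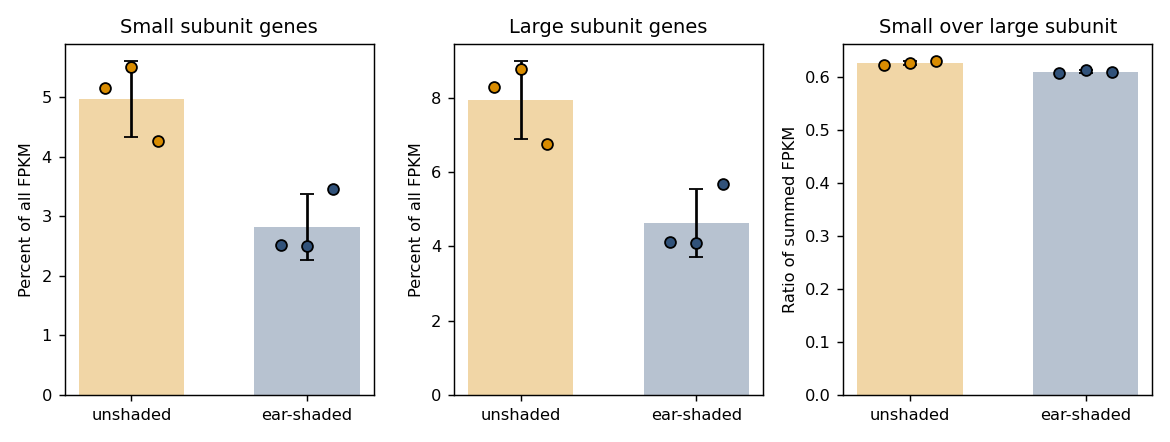
Share of all FPKM held by small subunit genes (left) and large subunit genes (middle), in percent, and the ratio of their summed FPKM (right). Bars are group means, error bars the SD and points the 3 libraries of each group. The small subunit share lies at 4.26% to 5.50% in unshaded and 2.50% to 3.46% in ear-shaded libraries, while the ratio stays between 0.607 and 0.630.

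Gene by gene, 152 of the 230 members were lower under shading, 11 were higher and 67 did not pass (limma on log2(FPKM + 1), Benjamini-Hochberg adjusted p under 0.05 over all 58283 genes tested). By the same test 21.5% of all tested genes were lower and 42.4% were higher, against 66.1% and 4.78% of the members. After median-of-ratios scaling 29.8% of all tested genes were lower and 29.7% higher, with 172 members lower and 7 higher. After quantile normalization these were 28.6% and 31.2%, with 134 members lower and 18 higher. A drop of 2-fold or more on that scale was called in 102 members and in 10.4% of all tested genes. The groups did not overlap in 150 members that were lower in shaded grains and in 17 that were higher, where all tested genes gave 24.0% and 46.2%, or 70.2% in either direction. In the other 63 members the groups overlapped. The median log2 fold change of the members was -0.86 and that of all tested genes 0.26, a difference of -1.11. Without the 16 genes of other COG text 151 of 214 were lower and 6 higher, and with ribosomal text alone 148 of 204 and 5. The authors' deposited table marks 145 members as down and 3 as up, where 19.5% and 16.8% of all tested genes carry these marks. Each of these marks had the direction of the limma call. Marked members all had an authors' log2 fold change of about 1 or more in size, a limit that the limma calls lack. By the adjusted p of the authors' unnamed test alone (under 0.05), 179 members were down and 4 up. Of all tested genes 29.5% and 26.5% were.

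The minimum of the rule left out 20 genes. The 3 members just inside it had means of 1.00 (AVESA.00010b.r2.UnG1499410, S27A), 1.20 (AVESA.00010b.r2.UnG1440860, S4) and 1.28 FPKM (AVESA.00010b.r2.3CG0506360, S15A). The 3 genes just below it had means of 0.892 (AVESA.00010b.r2.2AG0244200, S16), 0.854 (AVESA.00010b.r2.3DG0547270, S24) and 0.847 FPKM (AVESA.00010b.r2.2CG0303390, S26). Without a minimum 2 of the 20 were called higher and 1 lower, where 28.4% and 12.8% of all 136488 genes were.

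The members were abundant genes, with a median mean of 77.7 FPKM against 3.05 FPKM for all tested genes, and the calls went with abundance. Of 90 members with a mean of 100 FPKM or more, 76 were lower and 0 higher, which is 84.4% lower. Among 536 other tested genes of that abundance 56.5% were lower and 15.3% higher. The other genes in these comparisons still include those of the large subunit, of which 70.1% were lower over all levels. Of 53 members between 50 and 100 FPKM, 37 were lower and 0 higher (69.8% lower, where other genes had 40% lower and 25.2% higher), and of 52 between 10 and 50 FPKM, 31 were lower (59.6%, against 29.4%). Of 35 members under 10 FPKM 8 were lower (22.9%) and 7 higher, where 19.3% and 44.0% of other genes were. The share of lower calls in members under 10 FPKM was thus near that of other genes of their abundance.

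**Figure D2:**
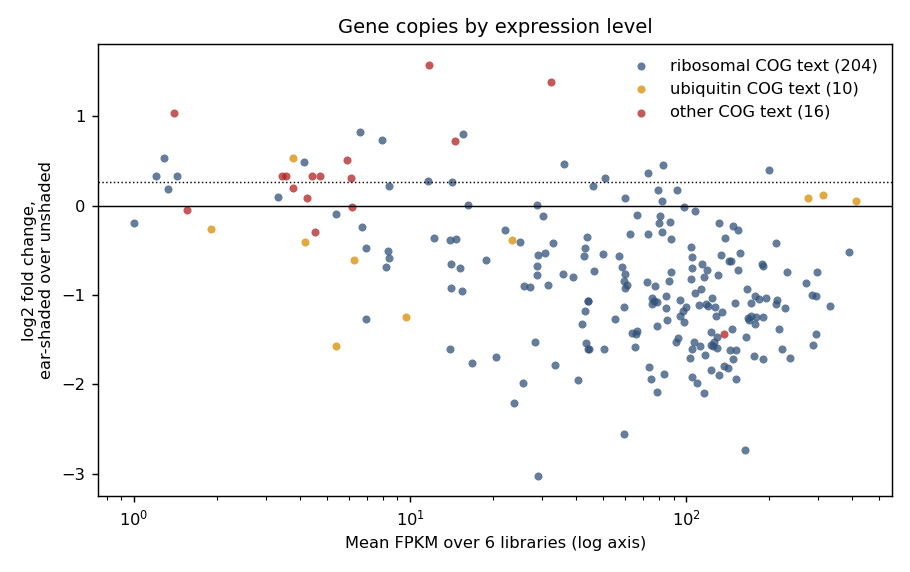
Log2 fold change of each of the 230 genes, on the log2(FPKM + 1) scale, against its mean FPKM over 6 libraries on a log axis, coloured by COG text. The dotted line marks the median of all tested genes, 0.26. Genes of 100 FPKM or more lie mostly below 0, with a median of -1.12, while genes under 10 FPKM scatter around a median of 0.10.

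Summed by protein, 28 of the 31 proteins were lower and 0 were higher (limma on the log2 of summed FPKM, adjusted over 3921 sums by KEGG text). Of all such sums, which were not matched to the small subunit totals in abundance, 18.3% were lower and 49.5% higher. That split turned with median-of-ratios scaling (31.8% lower and 27.4% higher, with 30 of the 31 proteins lower) and quantile normalization (34.2% and 26.9%, with 23 lower and 1 higher). In 27 proteins every ear-shaded library lay below every unshaded one, where 20.3% of all sums did. The median log2 fold change of the 31 totals was -1.01 against 0.29 for all sums. The totals ranged from -2.35 for S28 to 0.05 for S27A, so the proteins did not move by the same amount.

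**Figure D3:**
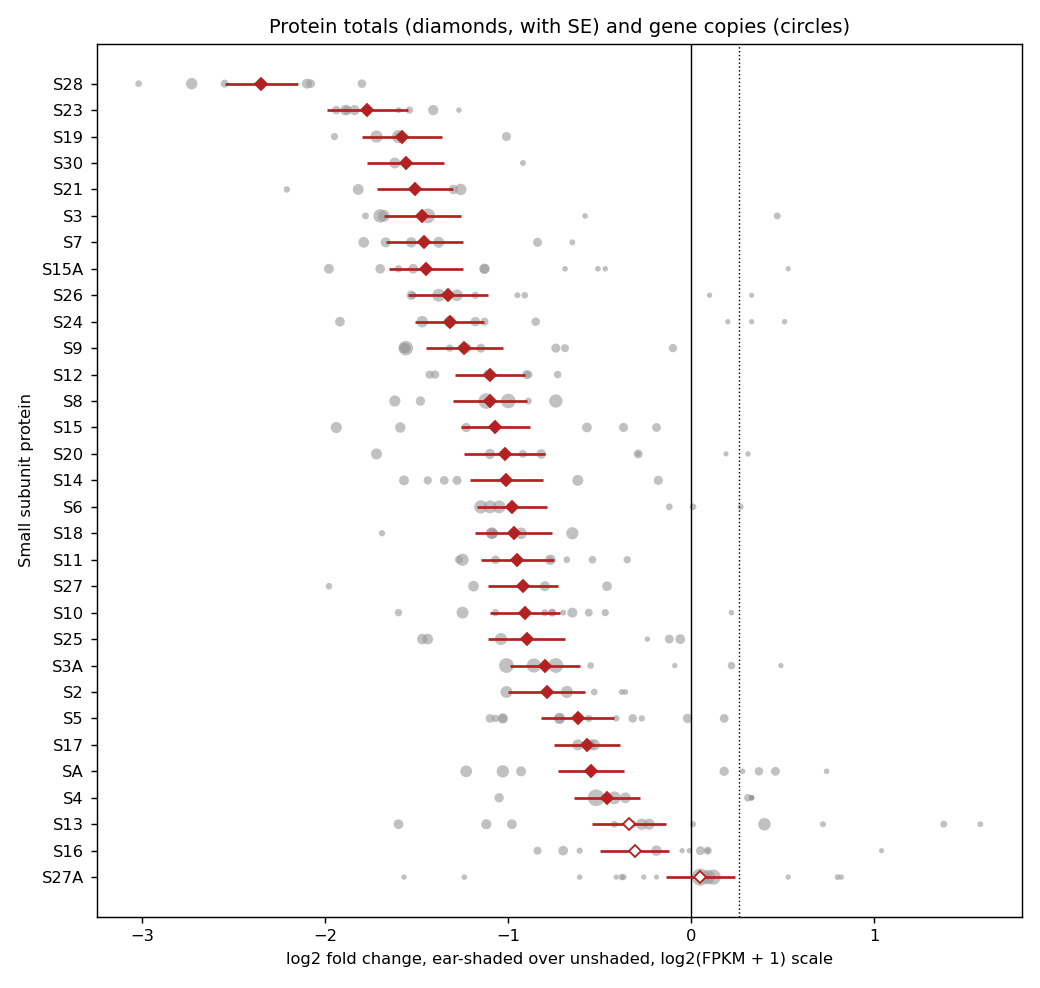
Log2 fold change, ear-shaded over unshaded on the log2(FPKM + 1) scale, for the 31 protein totals (diamonds, bars are the SE, filled where the adjusted p is under 0.05) and for their gene copies (circles, larger for a higher mean FPKM). The dotted line marks the median of all tested genes, 0.26. S28 lies lowest at -2.35, and S13, S16 and S27A carry open diamonds.

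Among proteins of the head, S28 changed most. This small protein sits at the exit of the messenger RNA channel. Its total was 888, 1049.1 and 677 FPKM in unshaded and 154, 146 and 208 FPKM in ear-shaded libraries. The groups were far apart, and the fold was 5.16 (log2 fold change -2.35, SE 0.20, limma adjusted p = 6.93e-05). All 6 copies fell, and 4 of the 5 largest decreases among all members were S28 copies. The most abundant, AVESA.00010b.r2.2CG0289250, went from 277, 350 and 227 FPKM to 35.7, 40.2 and 49.7 FPKM, a 6.81-fold drop. AVESA.00010b.r2.4DG0718680 went from 52.5 ± 9.88 to 5.65 ± 1.64 FPKM, with a log2 fold change of -3.02, the lowest of the 230 members. AVESA.00010b.r2.4AG0574340 fell 6.12-fold and AVESA.00010b.r2.2DG0339960 4.37-fold.

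S19, a head protein needed for maturation of the small subunit RNA in yeast and humans, had totals of 976 ± 172 and 329 ± 90.3 FPKM, a 2.97-fold drop in which all 6 copies fell. Its most abundant copy, AVESA.00010b.r2.5CG0896810, went from 361, 374 and 262 to 91.2, 95.6 and 145 FPKM. S3, which lines the entry of the messenger RNA channel, fell 2.72-fold from 1151.2 ± 134 to 423 ± 123 FPKM, with 5 of 6 copies lower. Its leading copy AVESA.00010b.r2.7CG0667210 was at 429 ± 43.4 and 162 ± 51.2 FPKM. The remaining S3 copy was at 29.9 and 42.5 FPKM in the group means and did not pass.

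Drops near 2-fold were common in the head. S12, a protein of the beak, fell 2.12-fold with all 6 copies lower (leading copy AVESA.00010b.r2.4DG0754320, 2.15-fold). S15, whose tail reaches the decoding centre, fell 2.09-fold with 4 of 6 copies lower. Its leading copy AVESA.00010b.r2.4AG0612550 fell more, from 232, 298 and 195 to 52.9, 52.9 and 83.0 FPKM, or 3.84-fold. S20 fell 2.02-fold, at a log2 fold change of -1.02, or -1.04 without its 2 genes of other COG text (leading copy AVESA.00010b.r2.1AG0036620, 3.24-fold) and S18, which touches the large subunit, 1.96-fold with all 6 copies lower. The leading S18 copy AVESA.00010b.r2.7CG0707230 fell 1.58-fold. Leaving out replicate 1 or 2 of either group ended that call (log2 fold change -0.54 to -0.59). S10, at the beak, fell 1.86-fold with 10 of 12 copies lower (leading copy AVESA.00010b.r2.4AG0651050, 2.35-fold). S25 fell 1.84-fold with 3 of 6 copies lower (leading copy AVESA.00010b.r2.7DG1385630, 2.03-fold). Quantile normalization ended both calls, at log2 fold changes of -0.36 in place of -0.90 for the S25 total and -0.44 in place of -1.04 for the copy. The S25 total was at -0.76 without its gene of other COG text and still passed.

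Some head proteins changed less. S5, which lies at the exit channel beside the transfer RNA, had totals of 1174.1, 1277.8 and 929 FPKM in unshaded and 637, 657 and 912 FPKM in ear-shaded libraries, so ear-shaded replicate 3 came close to unshaded replicate 3. The log2 fold change was -0.62 (SE 0.20, limma adjusted p = 0.0237), with 7 of 12 copies lower. S17 averaged 520 ± 88.1 FPKM without and 351 ± 66.4 FPKM with shading (log2 fold change -0.57, limma adjusted p = 0.0217), with 1 of its 3 copies lower. Neither call held when replicate 1 or 2 of either group was left out. Quantile normalization also ended the call of S5 (-0.08). With a replicate left out the log2 fold change was -0.53 to -0.59 for S5 (adjusted p from 0.0798 to 0.0956) and -0.44 to -0.60 for S17 (0.0523 to 0.0835). The leading S5 copy AVESA.00010b.r2.4AG0586400 was at 191 ± 30.1 and 117 ± 33.2 FPKM, and its call ended in the same cases (log2 fold change -0.61 to -0.68). The leading S17 copy AVESA.00010b.r2.1DG0184020 averaged 186 ± 33.2 and 129 ± 22.7 FPKM without passing. It passed when ear-shaded replicate 3 was left out (log2 fold change -0.66), with library weights (-0.63), without a variance trend (-0.53) and after median-of-ratios scaling (-0.87).

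S16, whose tail contacts the transfer RNA in the P site, was at 508, 604 and 443 FPKM in unshaded and 370, 363 and 528 FPKM in ear-shaded libraries. The groups overlapped and the total did not pass (log2 fold change -0.31, SE 0.19). It passed as lower without ear-shaded replicate 3 (-0.49, adjusted p = 0.0221), with library weights (-0.49) and with median-of-ratios scaling (-0.65, adjusted p = 0.0351), and lay at 0.00 with quantile normalization. The leading copy AVESA.00010b.r2.4DG0732600 was at 139 ± 20.4 and 123 ± 30.7 FPKM. Of its 10 genes 4 lacked ribosomal COG text, and these had means of 1.40 to 6.18 FPKM. Without them the log2 fold change of the total was -0.33.

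S27A, the ubiquitin fusion of the head, had the highest log2 fold change of the 31 totals and, like S13 and S16, did not pass. Its total was 1165.1, 1193.7 and 869 FPKM in unshaded and 1016.8, 1018.7 and 1294.9 FPKM in ear-shaded libraries, and the groups overlapped. The log2 fold change was 0.05 (SE 0.19, limma adjusted p = 0.832). The sign turned negative with median-of-ratios scaling (-0.29) and without unshaded replicate 3 (-0.10) or ear-shaded replicate 3 (-0.07), and quantile normalization called the total higher (0.61). Of its 14 genes, 3 were higher, 3 lower and 8 did not pass. The most abundant, AVESA.00010b.r2.3DG0559390, was at 459, 461 and 306 FPKM and at 381, 390 and 478 FPKM. It was the most abundant of all members over the 6 libraries. Like the total, it turned negative with median-of-ratios scaling (-0.30) and without unshaded replicate 3 (-0.15) or ear-shaded replicate 3 (-0.06), and quantile normalization called it higher (1.12). The next 2 copies were also at near-equal group means, and these 3 made up most of the total. The higher copies were minor genes, AVESA.00010b.r2.7DG1349750 (4.60 ± 1.66 to 8.61 ± 0.491 FPKM) and AVESA.00010b.r2.6CG1142210 (11.1 ± 1.27 to 19.9 ± 0.951 FPKM) among them. Other ubiquitin genes share the ubiquitin coding sequence, and how reads were placed among them was not tested.

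In the body and platform, S23 changed most. S23 lies at the decoding centre, where it takes part in the accuracy of codon reading. Its total was 1063.9, 1072.5 and 722 FPKM in unshaded and 238, 240 and 361 FPKM in ear-shaded libraries, 3.41-fold lower (log2 fold change -1.77, SE 0.22, limma adjusted p = 0.000343). All 9 copies fell, within a range of 0.67 on the log2 scale, so its copies moved alike. The leading copy AVESA.00010b.r2.1AG0047480 went from 241, 230 and 150 to 44.6, 46.2 and 75.6 FPKM. S30, at the entry channel and with 2 members, fell 2.93-fold from 236 ± 42.0 to 80.6 ± 23.1 FPKM, of which AVESA.00010b.r2.5CG0869170 held 91.1%. S21 fell 2.81-fold with all 4 copies lower. Its leading copy AVESA.00010b.r2.5AG0808000 fell 2.38-fold and its minor copy AVESA.00010b.r2.6AG1063690 fell 5.09-fold, from 39.8 ± 8.31 to 7.81 ± 1.72 FPKM.

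S7 of the platform (2.75-fold, all 6 copies), S15A (2.72-fold, 9 of 10 copies), S26 (2.49-fold, 7 of 9) and S24 (2.49-fold, 6 of 9) formed the next set. S26 lies at the exit of the channel and contacts the messenger RNA upstream of the start codon, and S24 belongs to the body. Without its 3 genes of DnaJ text the S24 total was at a log2 fold change of -1.36, against -1.32 with them. The leading copies of this set were AVESA.00010b.r2.4AG0652170 for S7 (2.61-fold lower), AVESA.00010b.r2.1AG0015030 for S15A (2.19-fold), AVESA.00010b.r2.4AG0614900 for S26 (2.59-fold) and AVESA.00010b.r2.4CG1285660 for S24 (2.49-fold). The single higher copy of S15A, AVESA.00010b.r2.3CG0506360, was at 0.870 ± 0.243 and 1.69 ± 0.283 FPKM, and its call ended without ear-shaded replicate 2 (log2 fold change 0.45). S9, a body protein tied to reading accuracy in yeast, fell 2.34-fold with 8 of 9 copies lower (leading copy AVESA.00010b.r2.5CG0908130, 2.92-fold). S8 had the largest unshaded total, 1532.7 ± 216 FPKM, and fell 2.13-fold with all 6 copies lower (leading copy AVESA.00010b.r2.1CG0085050, 2.17-fold).

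S6 is the small subunit protein that S6 kinase phosphorylates downstream of the TOR kinase. Its total went from 1026.5, 1063.9 and 799 FPKM to 433, 425 and 612 FPKM, with no overlap and a 1.96-fold drop (log2 fold change -0.98, SE 0.19, limma adjusted p = 0.00264). The change lay in its 3 abundant copies, which fell from group means of 286 to 314 FPKM to 135 to 142 FPKM. These include AVESA.00010b.r2.4CG1311120, at 331, 350 and 262 and at 123, 124 and 181 FPKM. The 3 minor copies had unshaded means of 12.8 to 31.7 FPKM and ear-shaded means of 15.6 to 29.0 FPKM, and none passed. S14, a platform protein, fell 1.99-fold and S11, a body protein, 1.93-fold (leading copy AVESA.00010b.r2.5DG0955430, 2.39-fold), and S27 fell 1.87-fold (leading copy AVESA.00010b.r2.2CG0298020, 2.28-fold). The leading S14 copy AVESA.00010b.r2.6CG1142340 was at 172 ± 22.4 and 114 ± 32.8 FPKM. Its call (log2 fold change -0.62, limma adjusted p = 0.0492) ended in 5 of the 6 fits that each leave out a library, where the change was -0.49 to -0.72.

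Smaller drops were seen in S3A, a platform protein (1.73-fold, 4 of 7 copies lower), and S2, at the entry channel (1.70-fold, 2 of 5). Quantile normalization ended the call of the S3A total (log2 fold change -0.23 in place of -0.80). Calls for their leading copies AVESA.00010b.r2.5AG0795530 (1.67-fold) and AVESA.00010b.r2.7CG0709200 (1.57-fold) ended when replicate 1 or 2 of either group was left out. Their log2 fold changes were then -0.67 to -0.69 and -0.56 to -0.67. S4, a body protein, had totals of 1115.3, 1102.1 and 894 FPKM and of 687, 665 and 914 FPKM, which overlap. It passed narrowly (log2 fold change -0.46, SE 0.18, limma adjusted p = 0.0478), turned to 0.10 with quantile normalization, and lost the call in the same 4 left-out cases (-0.38 to -0.42, adjusted p from 0.130 to 0.171), without a filter (-0.46) and with scaling to the same sum (-0.33). Without its 3 genes of cupin-domain text it was at -0.48 and passed. Only 1 of its 9 genes was lower, and the leading one, AVESA.00010b.r2.5DG0955650, had 455 ± 49.6 and 320 ± 62.9 FPKM and passed only when ear-shaded replicate 3 was left out, with library weights, with no variance trend or after median-of-ratios scaling, at log2 fold changes of -0.52 to -0.86.

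SA, a protein on the back of the body that is needed for small subunit maturation in yeast, split by copy. Its total went from 963, 912 and 781 FPKM to 542, 536 and 750 FPKM (log2 fold change -0.55, SE 0.18, limma adjusted p = 0.0236). The sign turned with quantile normalization (0.05). Leaving out replicate 1 or 2 of either group ended the call (-0.47 to -0.53, adjusted p from 0.0672 to 0.0965). Of 8 copies the 3 most abundant fell, with unshaded means of 148 to 261 FPKM and ear-shaded means of 78.0 to 129 FPKM. Of these AVESA.00010b.r2.6AG1056830 was at 293, 257 and 233 and at 111, 113 and 162 FPKM. The other 5 copies all had positive log2 fold changes, of 0.18 to 0.74, but 4 did not pass. The one that passed, AVESA.00010b.r2.UnG1517610, was at 6.08, 5.56 and 5.12 and at 8.51, 8.39 and 13.7 FPKM, no longer called after median-of-ratios scaling (log2 fold change 0.43) or quantile normalization (0.54).

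S13, a body protein next to the platform, had the widest spread among its genes, 3.18 on the log2 scale. Its total was 1159.7, 1308.2 and 902 FPKM in unshaded and 797, 803 and 1055.3 FPKM in ear-shaded libraries, which overlap, and it missed the threshold (log2 fold change -0.34, SE 0.20). It passed as lower without ear-shaded replicate 3 (-0.47, adjusted p = 0.0479), with library weights (-0.52) and with median-of-ratios scaling (-0.68), and turned to 0.21 with quantile normalization. The 3 genes of 456 bases in the table did not pass, at unshaded means of 159 to 172 FPKM and ear-shaded means of 136 to 227 FPKM. They include the leading copy AVESA.00010b.r2.4CG1291760, at 175, 202 and 139 and at 213, 205 and 263 FPKM, which passed as higher with scaling to the same sum (log2 fold change 0.54) and quantile normalization (1.11). Beside them 3 copies of 1063 to 1283 bases fell, from 143 to 165 FPKM to 51.2 to 75 FPKM, while 3 other copies with ribosomal text did not pass. Without the 3 genes of EF-hand text the total was at -0.44 and still did not pass. These 3 were higher, and they include the largest increases among members of at least 5 FPKM. AVESA.00010b.r2.7DG1365790 rose 3.35-fold to 18.1 ± 1.39 FPKM and AVESA.00010b.r2.4CG1291770 rose 2.71-fold to 47.3 ± 4.84 FPKM. Each of the 3 has a gene number next to a 456-base copy, 10 apart. Whether reads were divided between these neighbours was not tested.

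**Figure D4:**
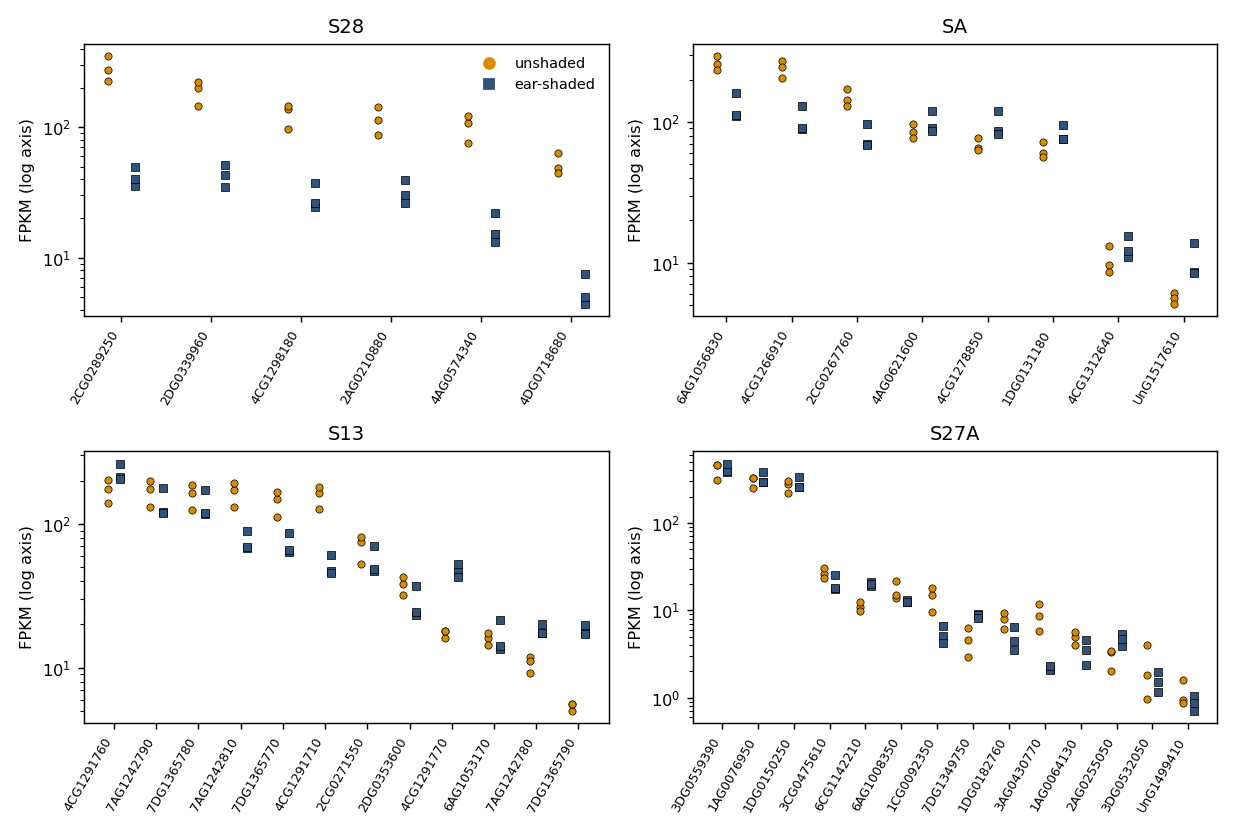
FPKM of every gene of S28, SA, S13 and S27A in each library, on log axes, ordered by mean. Circles are the 3 unshaded and squares the 3 ear-shaded libraries. All S28 copies lie lower in ear-shaded libraries, SA and S13 hold copies that lie lower and copies that do not, and the 3 leading S27A copies overlap.

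Because each library has its own composition, the share of each protein within the members' summed FPKM was compared as well, with the values as deposited. A constant factor per library leaves these shares as they are, while quantile normalization does not. S28 held 3.17% ± 0.208 (SD, n = 3) of the sum in unshaded and 1.20% ± 0.0378 in ear-shaded libraries, a ratio of 0.378. The share of S23 went from 3.47% ± 0.272 to 1.97% ± 0.0615. S27A went the other way, from 3.93% ± 0.137 to 7.93% ± 0.532. S16 (1.90% to 2.97%), S13 (4.10% to 6.31%), S4 (3.81% to 5.37%) and SA (3.26% to 4.32%) also held more of the sum. For each protein named here so far the groups did not overlap. A share can rise while the level falls, as for SA and S4 with the values as deposited. Shares of S6 (3.53% and 3.47%), S18 (3.72% and 3.70%) and S11 (2.90% and 2.91%) overlapped between groups. Totals were thus less even in shaded grains. Their coefficient of variation over the 31 proteins was 29.5% to 33.3% in unshaded and 44.9% to 50.8% in ear-shaded libraries. In unshaded libraries S8 was the highest and S30 the lowest, 5.95 to 7.23 times apart, and in ear-shaded libraries S27A was the highest and S30 the lowest, 12.1 to 15.2 times apart.

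**Figure D5:**
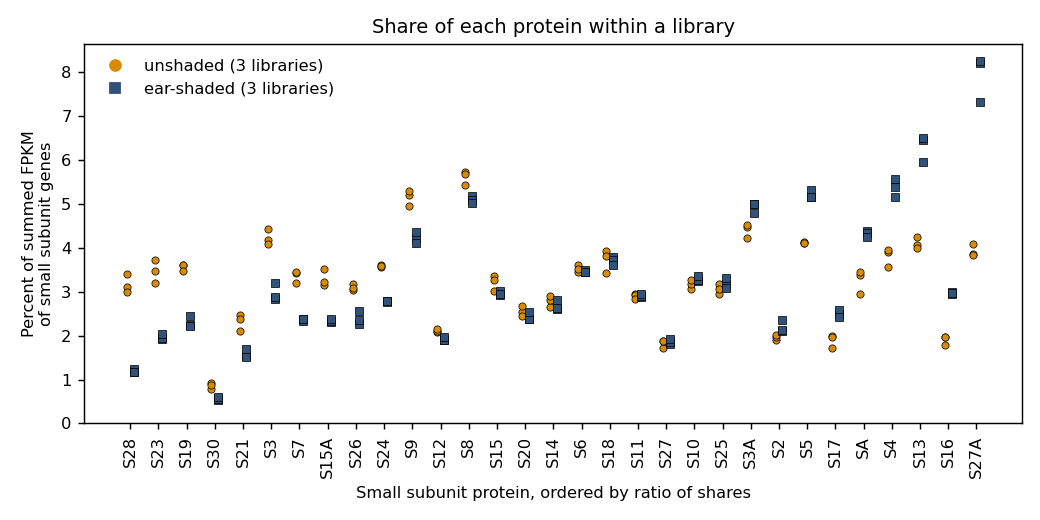
Percent of the summed FPKM of the 230 genes held by each of the 31 proteins in each library, ordered by the ratio of the group means. Circles are unshaded and squares ear-shaded libraries. S28 drops from a mean of 3.17% to 1.20% and S27A climbs from 3.93% to 7.93%.

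Between proteins lay 46.6% of the variance of the members' log2 fold changes, and the rest lay among copies of the same protein. This split makes no allowance for the number of proteins or for the error of each estimate. It includes the genes of other COG text. In 9 proteins every copy was lower, in 7 proteins some copies were lower and others higher, and no protein lacked a lower copy. Of these 7, S13, S16 and S24 had higher calls only in genes of other COG text. The single higher copies of S15A and S26 had means of 1.28 and 1.43 FPKM. The most abundant copy was lower in 26 of the 31 proteins. By subgenome, as the gene IDs give it, 51 of 80 genes of A (63.7%), 54 of 72 of C (75%) and 46 of 74 of D (62.2%) were lower. Of all tested genes of these subgenomes 17.7%, 17% and 17.3% were lower. The median log2 fold changes were -1.0, -0.89 and -0.80. Genes of head proteins had 64 of 101 lower (63.4%) with a median of -0.73, and those of the body 88 of 129 (68.2%) with a median of -0.95. This grouping by place in the subunit was added from textbook knowledge, and no test was made of it.

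The partners of the small subunit in translation gave a mixed picture. Of 348 genes of large subunit proteins 244 were lower and 21 higher (70.1% and 6.03%), with a median log2 fold change of -0.88. The ratio of small to large subunit summed FPKM was 0.622, 0.626 and 0.630 in unshaded and 0.607, 0.612 and 0.609 in ear-shaded libraries. Its groups did not overlap, and the ratio of the group means was 0.973. It was 0.968 without the 16 genes of other COG text, and 0.929 with ribosomal text alone, which leaves out most of S27A. Ribosomal proteins of the bacterial type, which serve plastids and mitochondria, had 127 of 277 genes higher (45.8%) and 58 lower (20.9%), near the 42.4% and 21.5% of all tested genes, and their sum was 1712.8 ± 143 and 2182.0 ± 127 FPKM. RACK1, a head protein outside the RP-S names, had 1 of 6 genes higher and 0 lower, with sums of 526 ± 41.6 and 600 ± 102 FPKM.

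Elongation factors, which bring in aminoacyl transfer RNA and move the ribosome along, had 20 of 42 genes lower and 7 higher, and their sum was 4268.1 ± 240 and 2831.3 ± 464 FPKM. Initiation factors had 37 of 192 lower and 76 higher, with near-equal sums of 3430.2 ± 151 and 3533.8 ± 210 FPKM. Assembly factors of the small subunit had 34 of 218 lower and 80 higher, with sums of 1453.9 ± 146 and 1470.8 ± 98.3 FPKM. Of 12 genes of TOR kinase and S6 kinase 5 were higher and 0 lower. The shares lower and higher in these last 3 lists lay at or below the 21.5% and 42.4% of all tested genes, while the large subunit and the elongation factors had larger shares of lower genes. No test compared the lists.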

How the data were processed

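RNA of 6 libraries of peeled oat grains was compared, 3 unshaded and 3 ear-shaded, with groups taken from the treatment label. The labels' protocols mention randomly primed cDNA, an Illumina library kit and a PacBio instrument, which leaves the platform unsettled. The submitters' processing notes list HISAT2 and StringTie, with neither role nor version. For genome build, annotation and strand setting, details were not given in the sources used here. The deposited table holds FPKM per gene made by the authors, gene length in bases, and the authors' log2 fold change, p-value and adjusted p-value of a test not named there. The authors' marks up and down, and their adjusted p with the sign of their log2 fold change, were only counted.

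As the values are FPKM, count models could not be applied, and depth and counting intervals are unknown. Genes of at least 1 FPKM on average (58283) were fitted on log2(FPKM + 1) with limma 3.58.1 in R 4.3.3, with a variance trend, two-sided, Benjamini-Hochberg adjusted over all genes with a threshold of 0.05. Fold changes on that scale understate low genes. Folds in the text are ratios of mean FPKM. Protein totals sum genes by protein name for the small subunit and by identical KEGG text otherwise (3921 sums). Members, lists and the rule for named genes (the most abundant copy of each protein, the 5 largest increases and decreases of at least 5 FPKM past the threshold with groups apart, 3 genes on each side of the minimum, and up to 2 leading genes of each other list, which are not printed) were chosen with earlier results of these data known. The check by COG text was added after the gene texts had been read. Alternatives were the pseudocount, the minimum, 3 scalings, variance without trend, weights per library, a replicate block, each library left out, ear-shaded replicates 1 and 2 averaged, and members limited by COG text. No sequences are printed, since none was used here.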

Additional observations from a re-analysis of the deposited data

How the results depend on the processing

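The number of small subunit genes called lower (152) was 120 to 178 and that of protein totals called lower (28) was 23 to 30 over the alternatives run, and the relative median (-1.11) kept its sign, at -1.34 to -0.65. Scaling shifted the all-gene median log2 fold change from 0.26 to 0.01 (median-of-ratios), 0.04 (quantile) and 0.35 (same sum). Genes called higher numbered 7 at a minimum of 5 FPKM and with median-of-ratios scaling, 18 with quantile normalization and with scaling to the same sum, 5 with ribosomal COG text only and 6 with ribosomal or ubiquitin COG text only (both chosen after seeing the data), in place of 11. With quantile normalization 1 protein total, S27A, was called higher, the ratio of summed FPKM and of its share was 0.738 in place of 0.517 and 0.568, and the relative median was -0.646. The ratio to the large subunit was 0.929 with ribosomal COG text only. Among all tested genes 38730 were called higher without a filter (24724 as reported), and 7292 higher and 5275 lower at a minimum of 5 FPKM. Of all protein totals (1939 higher, 718 lower), 1116 were higher at that minimum, 1076 higher and 1247 lower with median-of-ratios scaling, and 1055 and 1341 with quantile normalization.

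Signs turned with quantile normalization for the totals of SA (0.05), S4 (0.10), S13 (0.21) and S16 (0.00) and for the leading copies of S18 (0.01), S3A (0.10), S2 (0.01), S17 (0.05), S4 (0.37) and S16 (0.35). Quantile normalization also ended the calls of the totals of S25 (-0.36), S3A (-0.23) and S5 (-0.08) and of the leading copies of S8 (-0.32), S14 (-0.11), S25 (-0.44), S5 (-0.18) and SA (-0.37). The S27A total and its leading copy turned with median-of-ratios scaling (-0.29 and -0.30), library weights (-0.15 and -0.13), without unshaded replicate 3 (-0.10 and -0.15) and without ear-shaded replicate 3 (-0.07 and -0.06). Over the fits that leave out 1 library the total lay between -0.10 and 0.13 and the copy between -0.15 and 0.15. The cause was not tested. Leaving out 1 library gave 8 to 15 genes higher, 120 to 166 lower and 24 to 30 protein totals lower. Averaging ear-shaded replicates 1 and 2 gave 9, 120 and 24.

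A pairing of the libraries by replicate number was not seen in the values. Deviations from the group means of same-numbered libraries correlated at -0.0523, -0.0461 and -0.147 over tested genes. With 3 libraries per group the deviations within a group are tied to each other, so these correlations cannot exclude pairing. With the replicate block 9 genes were higher, 128 lower and 24 protein totals lower, and no library correlated best with its own number. Of the single genes and totals named, 1199 values kept their call and direction, 79 lost a call, 21 gained one and 18 turned. Values that turned are counted only as such, also where a call was lost, as for the SA and S4 totals with quantile normalization. With 3 libraries per group and no counts, changes of low copies are the least certain.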
